A study of Saccharomyces cerevisiae with 22 samples.

Results

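The small-subunit processome is the large particle that assembles on the ribosomal RNA precursor in the nucleolus and starts the production of the 40S ribosomal subunit. The 51 genes described here encode its parts and the factors that mature the 40S particle after it, and they were taken by gene symbol from a fixed list. All 51 were found, each with 1 probe of 2 spots, among 5326 named gene probes, and they lie on 13 chromosomes. mRNA was measured in Saccharomyces cerevisiae strain BY4742 (MATalpha, with HIS3, LEU2, LYS2 and URA3 deleted) in synthetic complete medium with glucose. In the heat course, cells grown at 30 °C were pelleted, taken up in medium at 37 °C and sampled after 5, 15, 30, 45 and 60 min. In the cooling course, cells grown at 37 °C were pelleted and taken up in medium at 30 °C. They were sampled after 5, 15, 30, 45 and 60 min, with the 37 °C culture itself as time 0. Each of the 11 conditions was hybridised on 2 dual-colour arrays, with its RNA labelled in Cy3 on array a and in Cy5 on array b and the other dye given to a common reference, RNA of untreated BY4742. The untreated culture of the heat course was not analysed here, so heat samples were set against the common reference. The effects of 37 °C cannot be told apart from those of pelleting and new medium. Likewise, the effects of 30 °C in the cooling course cannot be told apart from those of pelleting and new medium. The sources differ on whether arrays a and b hold independent cultures or belong to a larger dye-swap set, so the p-values measure the spread between arrays, which may be technical.

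A eukaryotic ribosome needs far more than its own RNA and proteins. The precursor is bound while it is still being transcribed, first by the UTP-A complex at its 5′ end, then by UTP-B and by the U3 small nucleolar ribonucleoprotein, whose RNA base-pairs with the precursor. Helicases and a GTPase then drive the rearrangements that release the early particle, and late factors carry it to the cytoplasm, where the last cut of the small-subunit RNA is made. In budding yeast, the genes for these factors are known for moving together with the demand for new ribosomes, and for low mRNA levels soon after many stresses.

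The median spot intensity of an array was 210 to 527 for Cy5 and 195 to 394 for Cy3, 91.9% to 97.6% of gene spots were above background, and the 2 arrays of a condition correlated at 0.939 to 0.991 over all probes. All 51 probes were above background on all 22 arrays, and none was saturated, the highest member signal being 14710 intensity units. Of the mating-type markers, the alpha-specific MF(ALPHA)1, MF(ALPHA)2, STE3 and SAG1 were above background on all 22 arrays, but so were MFA1, STE2, BAR1 and AGA2 of the other mating type, which the strain should not express, with MFA2 above it on 20. Of the deleted genes, URA3 was above background on 1 array and LEU2 on 6, whereas HIS3 and LYS2 were above it on all 22. How much of each of these deleted genes the strain lacks was not examined here. Because the strain should not express the genes of the other mating type, being above background does not by itself show a transcript on these arrays. RNA came from whole cultures, where fewer cells with a transcript and less transcript per cell cannot be told apart.

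Within 5 min at 37 °C, transcripts of nearly the whole group were lower than in the common reference. Of the 51 genes 46 fell, against 6.01% of all named probes, and none rose. Here a gene is said to fall or rise when its change passed limma's moderated test at a Benjamini-Hochberg adjusted p under 0.05 over all 5326 probes and was also over 1.7-fold, which is the threshold the study uses. The median log2 ratio of the 51 genes was -1.23, against -0.00 for all probes, and both arrays gave it alike, at -1.22 on array a and -1.25 on array b. All 51 genes were below 0 on both arrays. After 15 min 35 of the 51 were lower, against 9.35% of all probes, with a median of -0.91. After 30 min 22 were lower, against 7.02%, with a median of -0.69. After 45 min none was lower, against 1.82% of all probes, and after 60 min none, against 1.41%, with medians of -0.24 and -0.25. Without array a the count at 45 min was 2, and without array b the count at 60 min was 1. Without a within-array normalization curve the count was 4 at each of these times. At an unadjusted p under 0.05 limma gave 51, 50, 51, 43 and 42 of the 51 genes lower at the 5 times, against 39.9%, 41.5%, 40.8%, 36.5% and 34.7% of all probes. By the same measure 1 gene was higher at 45 min and 1 at 60 min, against 39.7% and 38.1% of all probes, and none at the earlier times. Over all 5 times 50 of the 51 genes fell at 1 or more times, against 12.3% of all probes. Of these, 17 were lower at 1 time, 13 at 2 times and 20 at 3 times.

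**Figure D1:**
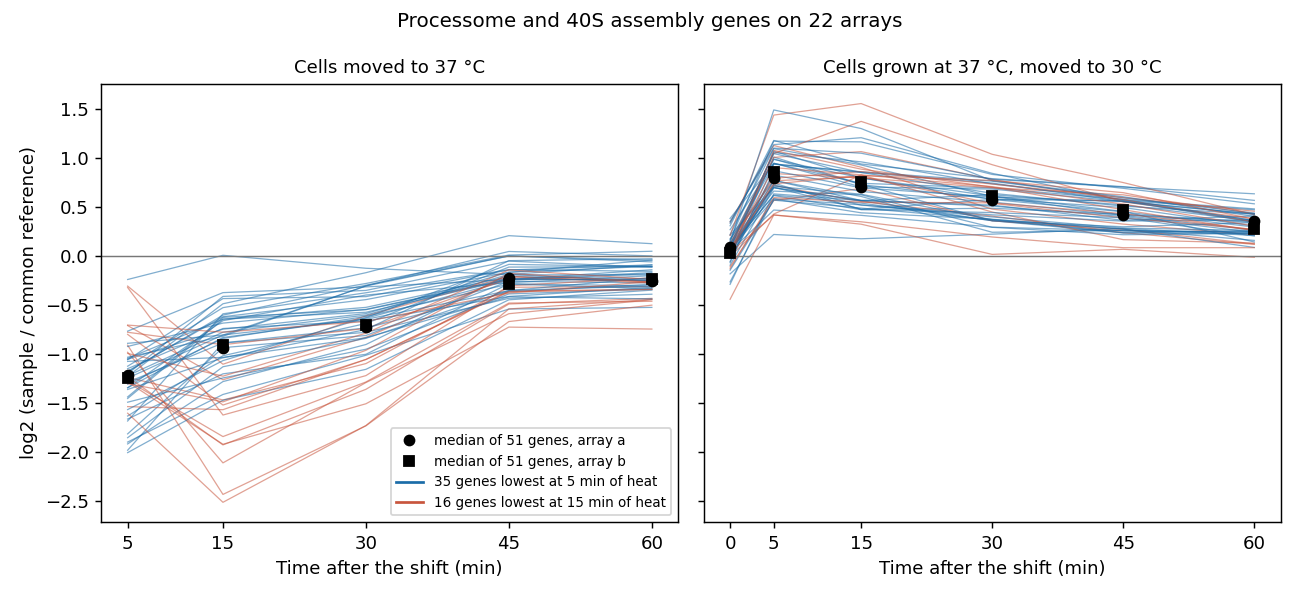
Each line is 1 of the 51 genes, as the mean log2 ratio of the sample over the common reference on the 2 arrays of a condition (y axis), against the time after the shift in min (x axis). The left panel shows cells moved to 37 °C and the right panel cells moved to 30 °C after growth at 37 °C. Black circles (array a) and squares (array b) are the medians of the 51 genes on each array, which lie at -1.22 and -1.25 after 5 min of heat and at 0.79 and 0.86 after 5 min of cooling.

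The UTP-A complex, the first to bind the precursor, fell as a whole at 5 min, with 7 of its 7 genes lower and a median of -1.35. UTP8, an essential subunit of this complex, was lowest in the complex at that time, at -1.81 and -2.00 on arrays a and b. By 15 min 4 of the 7 were still lower, and the complex had spread out. UTP10, its largest subunit, was at -1.29 and -1.26 after 5 min and at -1.80 and -1.89 after 15 min, so it was lower on both arrays at the later time. UTP5, by contrast, was at -1.26 and -1.20 after 5 min and only at -0.51 and -0.47 after 15 min. The fitted change at 15 min was -1.85 for UTP10 (standard error, SE, 0.041, limma adjusted p = 8.1e-16). NAN1, also called UTP17, was at -1.47 at 15 min, whereas UTP9 and UTP15 were at -0.59 and -0.66.

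All 6 genes of the UTP-B complex, a scaffold built largely of WD-repeat proteins, fell at 5 min, with a median of -1.65, and 4 of 6 were lower at 15 min. PWP2 was at -1.95 and -1.89 on arrays a and b after 5 min, and UTP13 at -1.89 and -2.08. Both had come up on both arrays by 15 min, PWP2 to -1.27 and -1.30 (SE 0.048, limma adjusted p = 4.7e-13) and UTP13 to -0.87 and -0.91. UTP6 was the least changed of the complex at 15 min, at -0.65 and -0.61. None of the 6 genes was lower at 15 min than at 5 min.

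The UTP-C complex was split. UTP22, which also binds ribosomal protein gene regulators in yeast, was at -1.27 and -1.42 on arrays a and b after 5 min and at -0.84 and -0.83 after 15 min (SE 0.031, limma adjusted p = 4.3e-13), and it fell at both times. RRP7, its partner in the complex, was at -0.24 and -0.24 after 5 min and at -0.00 and 0.01 after 15 min. RRP7 was the only one of the 51 that fell at no time in heat and rose at no time on cooling. Its change at 15 min was 0.01 (SE 0.037, limma adjusted p = 0.90), and its mean log2 intensity of 7.01 was the lowest among the 51 probes. The probe of STE2, which the strain should not express, had 7.10, and whether the signal of RRP7 comes from its transcript was not tested.

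Of the 4 genes for proteins of the U3 particle 3 were lowest at 15 min and not at 5 min. NOP1, the RNA methyltransferase known as fibrillarin in other species, was at -1.04 and -0.93 on arrays a and b after 5 min and at -2.20 and -2.03 after 15 min, with a change of -2.11 at the later time (SE 0.038, limma adjusted p = 7.7e-17). SNU13, which binds the kink-turn of U3 and of a spliceosomal RNA, was at -0.38 and -0.24 after 5 min and at -1.07 and -1.15 after 15 min. In both genes the arrays of the later time were lower than both arrays of the earlier one. The size for the bright SNU13 probe at 15 min depended on the curve. It was -1.50 with global loess, -1.79 without a within-array curve and -1.98 with a curve through the external control spots. NOP58, a core protein shared by this class of particles, was at -1.29 after 5 min and -1.92 after 15 min. RRP9, the one of the 4 that is specific to U3, had the opposite order, at -1.04 and -1.08 after 5 min and -0.45 and -0.43 after 15 min. Of the 4 genes 3 fell at 5 min and 3 at 15 min.

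All 3 genes of the MPP10 complex, which helps U3 pair with the precursor, fell at 5 min, and 2 of 3 were lower at 15 min. IMP4 was at -1.30 and -1.29 on arrays a and b after 5 min and at -0.93 and -0.85 after 15 min (SE 0.045, limma adjusted p = 2.6e-11). IMP3 was at -1.14 and -1.22 after 5 min and at -0.64 and -0.61 after 15 min, a 1.54-fold lower ratio at 15 min, under the 1.7-fold limit. MPP10 itself was at -0.72 and -1.07 after 5 min and -0.85 and -0.76 after 15 min, so its arrays at the 2 times overlapped.

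Of the helicases and the GTPase module 7 of 8 genes fell at 5 min and 5 of 8 at 15 min. DHR2, a DEAH-box helicase, was the lowest of all 51 genes at 5 min, at -2.07 and -1.95 on arrays a and b. Its change of -2.01 was a 4.03-fold lower ratio (SE 0.046, limma adjusted p = 1.9e-15). The lowest signal of DHR2 over background, 20.7 intensity units, was below the 29.3 of RRP7. With normexp background correction UTP13 was lower than DHR2 at 5 min, at -1.965 against -1.921. ROK1, a DEAD-box helicase, stayed near its first value, at -1.53 and -1.55 after 5 min and -1.56 and -1.58 after 15 min (SE 0.038, limma adjusted p = 2.6e-15). BMS1, the GTPase, was at -0.63 and -0.80 after 5 min, short of the 1.7-fold limit on the mean, and at -1.30 and -1.23 after 15 min. RCL1, which forms a pair with BMS1 in the particle, had the opposite order, at -1.16 and -1.25 after 5 min and -0.46 and -0.37 after 15 min. ECM16, the DEAH-box helicase that takes U3 off the precursor, was at -0.78 and -0.91 at the 2 times, and the DEAD-box helicases DBP8, FAL1 and RRP3 were between -1.22 and -1.13 after 5 min and between -0.78 and -0.53 after 15 min.

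The other processome factors held the lowest values of all. UTP20, a very large scaffold protein, was at -1.77 and -1.45 on arrays a and b after 5 min and at -2.58 and -2.46 after 15 min. RRP5, an RNA-binding protein needed for the RNAs of both subunits, was at -1.08 and -0.75 after 5 min and at -2.53 and -2.35 after 15 min. For both genes the 15 min arrays lay well below the 5 min arrays. The change of UTP20 at 15 min was -2.52, a 5.72-fold lower ratio (SE 0.046, limma adjusted p = 9.9e-17). KRR1, a KH-domain protein, had hardly moved at 5 min, at -0.33 and -0.31, and was at -1.63 and -1.62 after 15 min. SOF1 was at the other end of this group at 15 min, at -0.62 and -0.67, after -1.29 and -1.62 at 5 min. NSR1, the yeast relative of nucleolin, was at -1.86 and -1.13 at the 2 times, and UTP14, which activates ECM16, at -1.57 and -1.07. Of the 14 genes 13 fell at 5 min, KRR1 being the exception, and 10 at 15 min.

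The late 40S factors fell with the rest, 6 of 7 at each of 5 and 15 min. DIM1, the dimethylase of the small-subunit RNA, was at -0.90 and -0.70 on arrays a and b after 5 min and at -1.60 and -1.44 after 15 min (SE 0.039, limma adjusted p = 4.5e-15). RIO1, an atypical kinase, was at -0.75 and -0.79 after 5 min and at -0.36 and -0.39 after 15 min. Its relative RIO2 was at -1.08 and -1.04 at the 2 times. NOB1, the nuclease that makes the final cut of the small-subunit RNA, was among the least changed of the 7 at 5 min, at -0.71, and was at -0.78 at 15 min. The export and assembly factors LTV1, TSR1 and ENP1 were between -1.36 and -1.30 after 5 min, and at -1.49, -1.04 and -0.84 after 15 min.

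**Figure D2:**
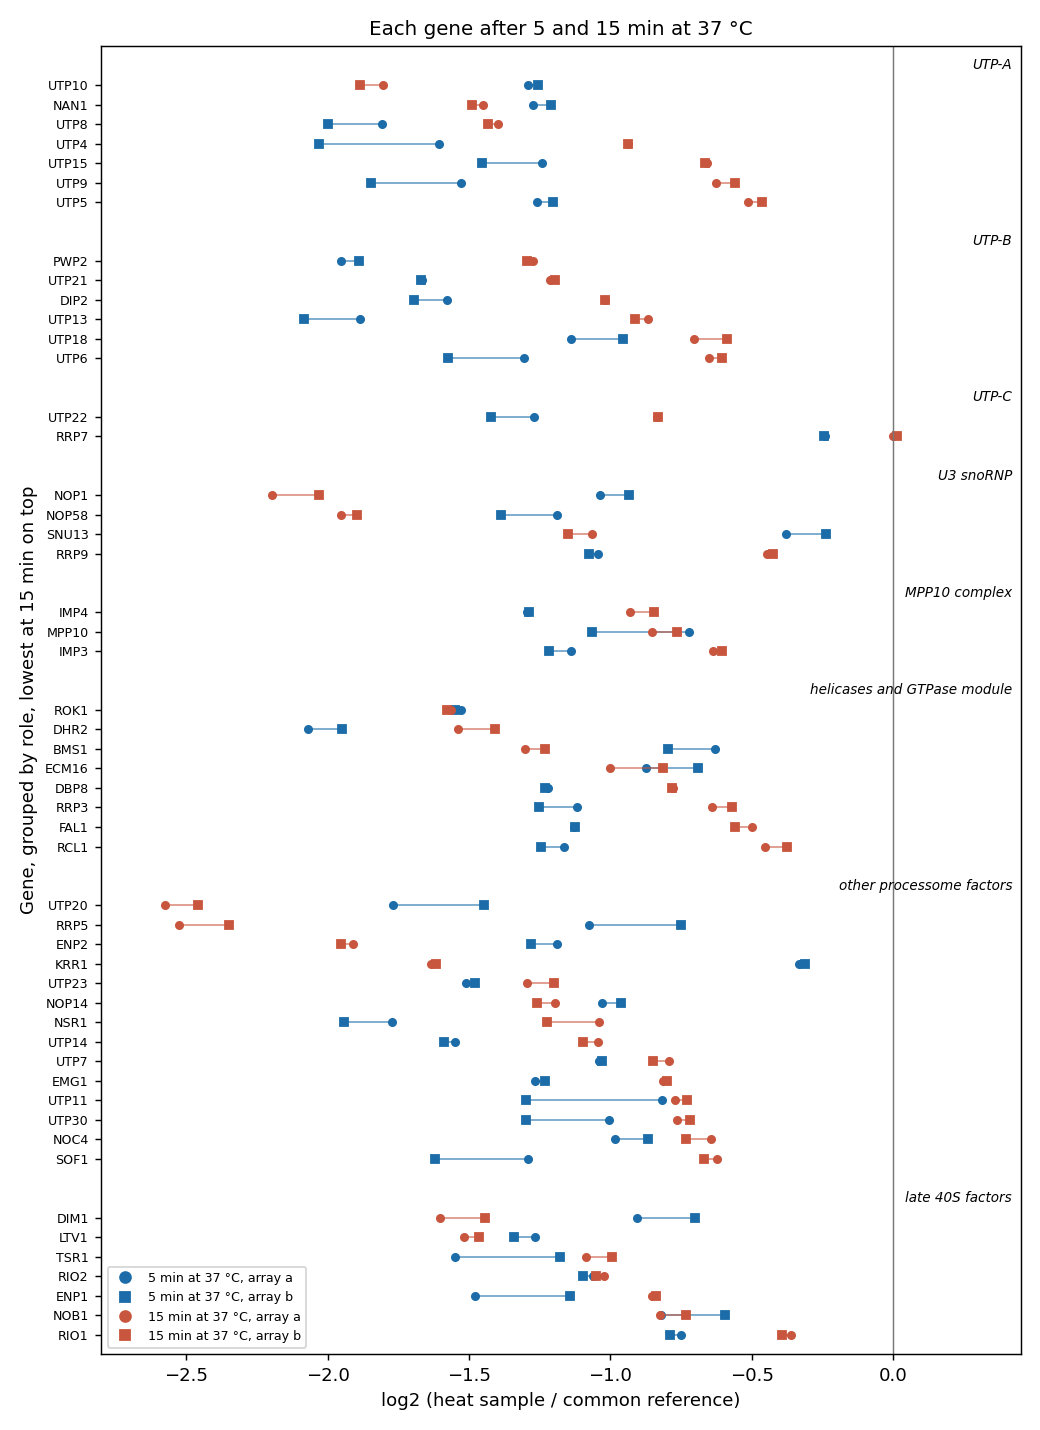
For each of the 51 genes, grouped by role, the log2 ratio of the heat sample over the common reference (x axis) is shown after 5 min (blue) and 15 min (red) at 37 °C, with array a as a circle and array b as a square joined by a line. UTP20, RRP5 and KRR1 have their red points left of their blue ones, UTP13 and RCL1 right of them, and RRP7 lies next to 0.

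The time of the lowest value thus differed within the group and within single complexes. It was 5 min for 35 of the 51 genes and 15 min for 16, and no gene was lowest at 30 min or later. The 16 comprised 3 of the 4 U3 proteins (NOP1, NOP58, SNU13), 2 of 7 UTP-A genes (UTP10, NAN1), 3 of 8 in the helicase and GTPase module (ECM16, ROK1, BMS1), 5 of 14 other factors (UTP20, RRP5, KRR1, ENP2, NOP14) and 3 of 7 late factors (DIM1, LTV1, NOB1). UTP-B, UTP-C and the MPP10 complex held none of them with this curve. Near-ties depended on the curve. MPP10 was at -0.99 after 5 min and -1.04 after 15 min with global loess. It was at -1.01 and -1.26 with a curve through the external control spots, and also lower at 15 min without a curve and with the deposited ratios. With global loess ROK1 (-1.575 and -1.534) and NOB1 (-0.805 and -0.786) were lower at 5 min. When 15 min was set against 5 min directly, 5 genes were lower at the later time, against 2.7% of all probes, and 6 were higher, against 2.12%. The 5 were RRP5 at -1.52, KRR1 at -1.30, NOP1 at -1.13, UTP20 at -0.91 and SNU13 at -0.80, and that of RRP5 was estimated with an SE of 0.058 (limma adjusted p = 1.9e-11). The 6 were UTP13 at 1.10, UTP9 at 1.10, UTP4 at 0.88, SOF1 at 0.81, UTP6 at 0.81 and RCL1 at 0.79. By the adjusted p alone, at any size of change, 13 were lower, against 27.6% of all probes, and 33 higher, against 27.2%. The count of 6 leaned on array b of the 5 min sample, since without it 2 genes were higher and without array a 7 were. With a normalization curve drawn through the external control spots, 8 genes were lower and 4 higher. The genes named also depended on the processing. With the deposited log2 ratios UTP4 at 0.76, UTP6 at 0.73, SOF1 at 0.71 and SNU13 at -0.72 were under the 1.7-fold limit. On these ratios NSR1 was at 1.01, UTP5 at 0.81 and ENP2 at -0.84, over it in size. With global loess NOP1 was at -0.68, under the limit.

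Most of the lowered values had risen again within the hour. From 15 to 30 min the median changed by 0.29, and 2 genes were higher at 30 min, NOP1 by 0.82 and UTP20 by 0.78, against 0.695% of all probes, with 1 gene higher without array b of the 30 min sample. The size for NOP1 depended on the curve. It was 0.30 with global loess, 0.25 without a within-array curve, 0.42 with the curve through the external control spots and 0.71 with the deposited ratios. UTP20 was at 0.76, 0.78, 0.81 and 0.78 in the same order. From 15 to 60 min 24 of the 51 genes were higher at 60 min, against 5.65% of all probes, with a median change of 0.69 and the largest for UTP20 at 2.07 (SE 0.065, limma adjusted p = 1.0e-12). With the curve through the external control spots 42 genes were higher, with a median change of 1.05, which is 0.77 relative to all probes. Of its lowest log2 value in heat, the median gene among the 50 that fell had regained 82.3% by 60 min. RIO2 had regained the least of these 50, at 59.2%, and UTP5 the most, at 110%. With the control-spot curve the median gene had regained 95.6%.

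At 60 min the genes were nevertheless mostly a little below the reference, with 46 of 51 below 0 on both arrays and 2 above 0 on both. By the adjusted p alone 41 of the 51 were lower, against 33.9% of all probes. NOP58 was the lowest at 60 min, at -0.76 and -0.73 on arrays a and b, followed by UTP8 at -0.50 and -0.55 and RRP5 at -0.60 and -0.41. The change of NOP58 was -0.75, a 1.68-fold lower ratio (SE 0.054, limma adjusted p = 6.1e-09), just short of the 1.7-fold limit. At the other end UTP5 was at 0.12 and 0.13 (SE 0.036, limma adjusted p = 0.0061), FAL1 at 0.09 and 0.00, and UTP7 at 0.05 and -0.05, so that UTP5 was above the reference on both arrays and UTP7 on one. With the curve through the external control spots the median of all probes shifted by 0.20 at 60 min, and the median of the 51 genes was -0.06, which is -0.26 relative to all probes. On that scale 33 of the 51 genes were below 0 and 18 above at 60 min, and 35 below and 16 above at 45 min.

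Cells that had grown at 37 °C for a longer time carried these transcripts at about the reference level. In the 37 °C culture the median of the 51 genes was 0.06 over the common reference, with none lower by the 1.7-fold rule, against 1.16% of all probes, and none higher. At an unadjusted p under 0.05, limma gave 9 lower, against 33.6% of all probes, and 18 higher, against 37.7%. With the curve through the external control spots the median was -0.02. UTP5 was at 0.36 and 0.40 on arrays a and b of this culture and NOP58 at -0.32 and -0.57. Set against this culture, cells after 60 min of heat were lower in 1 gene, against 0.357% of all probes, with a median of -0.30 and all 51 genes below 0. The gene was UTP10, at -0.41 and -0.52 after 60 min of heat, against 0.37 and 0.32 in the 37 °C culture, a change of -0.81 (SE 0.057, limma adjusted p = 5.7e-08). By the adjusted p alone 41 of the 51 were lower, against 21.6% of all probes. With the curve through the external control spots, 30 of the 51 were below 0 in this comparison, 21 were above, and UTP10 was at -0.52.

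On cooling, transcripts of many of these genes were higher. After 5 min at 30 °C, 27 of the 51 genes were higher than in the 37 °C culture, against 2.93% of all probes, with a median of 0.78 against 0.00 for all probes. After 15 min 17 were higher, against 2.67%, with a median of 0.70, and 10 without a within-array curve. After 30 min 4 were higher, against 1.43%, namely UTP20 at 0.83, UTP11 at 0.82, RRP5 at 0.81 and IMP4 at 0.80, and 2 without a within-array curve. At 45 min none was higher, against 1.05% of all probes, and at 60 min none, against 0.845%, with medians of 0.39 and 0.26. With the curve through the external control spots the medians were 0.50 and 0.40, or 0.44 and 0.36 relative to all probes, and 3 and 2 genes were higher at these times. At an unadjusted p under 0.05 limma gave 47 higher at 45 min, against 31.8% of all probes, and 40 at 60 min, against 31.1%. No gene was lower at any of the 5 times by the same rule, and at an unadjusted p under 0.05 limma gave 1, at 60 min, against 32.6% of all probes. In all 30 genes rose at 1 or more times, against 4.22% of all probes, and all 30 were among the 50 that fell in heat. The count at 30 min depended on single arrays, being 8 without array a of that time, 2 without its array b and 2 without array b of the 37 °C culture. That at 45 min was 2 without array a of that time.

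NSR1, whose protein binds the signals that bring proteins into the nucleus as well as precursor RNA, led at 5 min, at 1.50 and 1.48 on arrays a and b after 5 min of cooling, against 0.25 and 0.02 in the 37 °C culture. Its change was 1.35, a 2.56-fold higher ratio (SE 0.073, limma adjusted p = 5.0e-10). UTP20 was at 1.38 and 1.49 after 5 min, against 0.22 and 0.20 in the 37 °C culture, and ENP2 at 1.14 and 1.02, against 0.09 and -0.09. In these 3 genes both cooled arrays lay above both arrays of the 37 °C culture. The smallest changes at 5 min were those of NOB1, at 0.35 and 0.48 against -0.07 and 0.14 in the 37 °C culture, RRP7, at 0.18 and 0.26 against -0.13 and -0.23, and UTP15, at 0.46 and 0.47 against 0.09 and 0.01. Their changes of 0.38 (SE 0.052, limma adjusted p = 1.1e-05), 0.40 and 0.42 were below the 1.7-fold limit. Of the roles, the other processome factors had 9 of 14 genes higher at 5 min and a median of 0.93, UTP-A 4 of 7, UTP-B 4 of 6, the helicases and GTPase module 4 of 8, the MPP10 complex 2 of 3, UTP-C 1 of 2, the U3 proteins 1 of 4 and the late factors 2 of 7.

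At 15 min of cooling UTP20 led, at 1.48 and 1.63 on arrays a and b, against 0.22 and 0.20 in the 37 °C culture. Its change was 1.35, a 2.54-fold higher ratio (SE 0.065, limma adjusted p = 9.0e-11). RRP5 was at 1.25 and 1.50 after 15 min, against 0.01 and 0.22 in the 37 °C culture, and NSR1 at 1.30 and 1.30, against 0.25 and 0.02. The smallest changes were 0.31 for NOB1 (SE 0.052, limma adjusted p = 7.2e-05), 0.36 for UTP7 and 0.36 for RRP7. NOB1 was at 0.24 and 0.45 after 15 min, against -0.07 and 0.14 in the 37 °C culture. UTP7 was at 0.61 and 0.52, against 0.25 and 0.17, and RRP7 at 0.18 and 0.17, against -0.13 and -0.23. Of the U3 proteins 3 of 4 were higher at this time, SNU13 at 0.83, NOP1 at 0.80 and NOP58 at 0.77. No role had more genes higher at 15 min than at 5 min apart from the U3 proteins, and the helicases and GTPase module had 4 at both times.

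**Figure D3:**
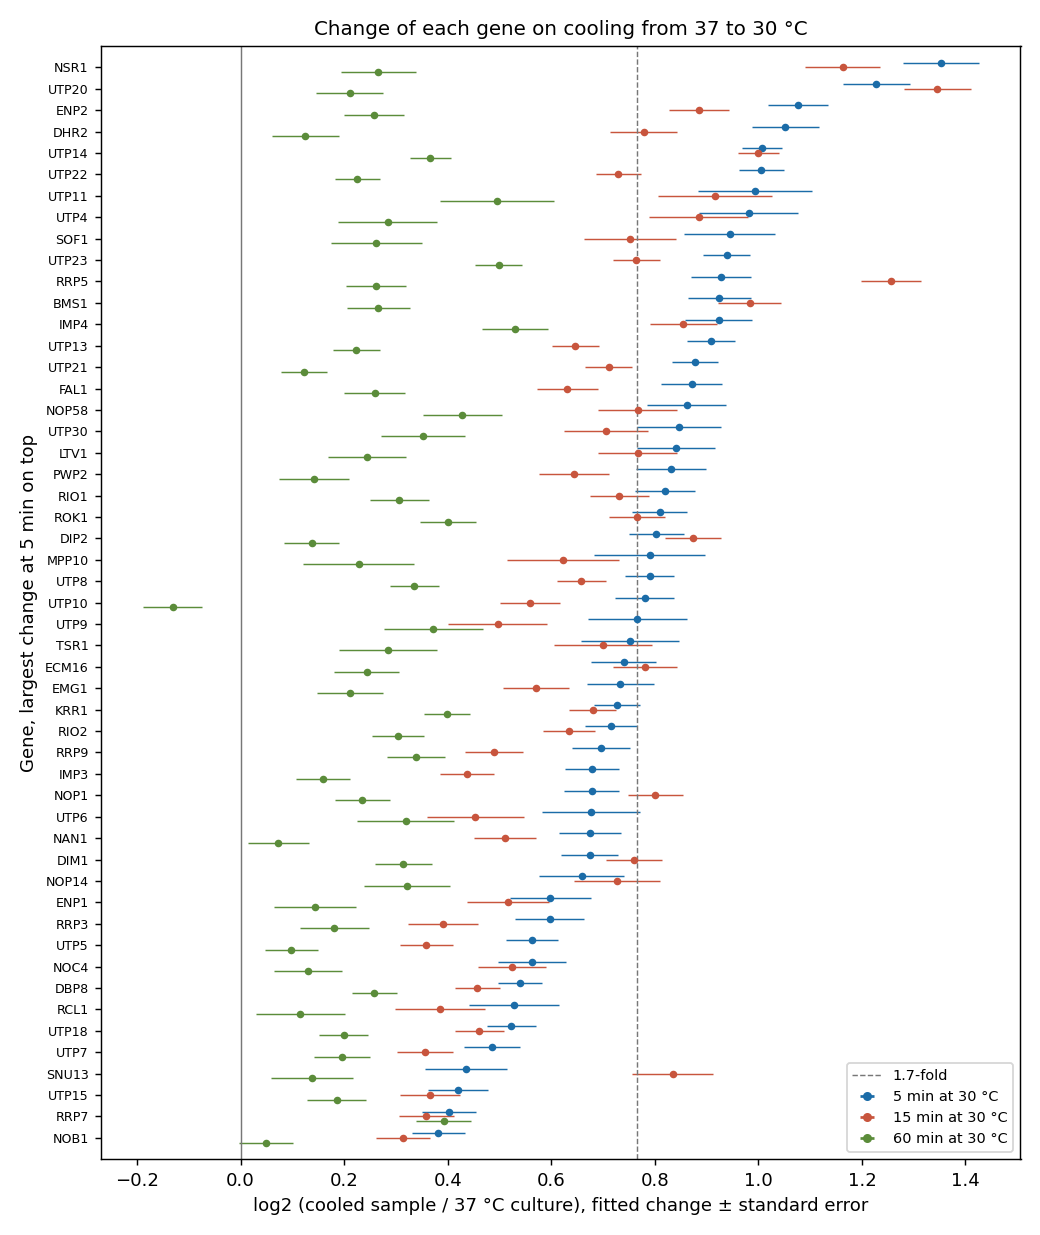
The fitted log2 change of each of the 51 genes in cooled cells against the 37 °C culture (x axis, bars of 1 standard error) is shown after 5 min (blue), 15 min (red) and 60 min (green) at 30 °C, with the 1.7-fold limit dashed. At 5 min 27 genes lie right of the limit, at 15 min 17 and at 60 min none. SNU13 and RRP5 have their red points well right of their blue ones.

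The rise was largest at 5 min for 41 of the 51 genes, at 15 min for 9 and at 45 min for 1, which was RRP7. With the control-spot curve it was largest at 5 min for 35 and at 15 min for 15. Between 15 and 5 min no gene changed past the 1.7-fold limit in either direction, against 0.15% of all probes that were higher and 0.901% that were lower, although SNU13 at 0.40 (SE 0.079, limma adjusted p = 0.0016) and RRP5 at 0.33 (limma adjusted p = 0.00065) were higher at 15 min by the adjusted p alone. At an unadjusted p under 0.05 limma gave 3 higher, against 15% of all probes, and 21 lower, against 25.1%. At 60 min 3 genes were lower than at 15 min, against 0.713% of all probes, and the median had changed by -0.40. The 3 were UTP20 at -1.13 (SE 0.065, limma adjusted p = 2.8e-09), RRP5 at -0.99 and NSR1 at -0.90, which were also the 3 highest at 15 min. Of the 30 genes that rose, the median gene had 28.9% of its highest change left at 60 min, and 28 had under 50% left. With the control-spot curve the median of these 30 was 49.7%, and 15 had under 50% left. With the deposited ratios 25 had under 50% left, and without a within-array curve 25. With the print-tip curve used elsewhere the exceptions were IMP4, with 57.4% left, and UTP23, with 53.1%. Just under the cut were NOP58 and UTP11, each with 49.8% left, and ROK1, with 49.5%. UTP10 was the only gene below its value in the 37 °C culture at 60 min, at 0.20 and 0.23 after cooling, against 0.37 and 0.32 in the culture, a change of -0.13 that missed the threshold (limma adjusted p = 0.061). With the control-spot curve its change was 0.21, and none of the 51 genes was below 0.

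After 60 min at 30 °C the genes were at or slightly above the common reference of cells grown without a shift. The median was 0.30, with 50 of the 51 genes above 0 on both arrays. None was over the 1.7-fold limit, against 0.657% of all probes, and 47 were higher by the adjusted p alone, against 31.7% of all probes, or 49 at an unadjusted p under 0.05, against 33.2%. By the adjusted p alone, 40 of the 51 were also higher than in the 37 °C culture at 60 min, against 28.7% of all probes.

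The 2 courses were compared directly at 15 min, as the change in heat over the common reference minus the change on cooling over the 37 °C culture. The changes differed for 50 of the 51 genes, against 31.3% of all probes, and the median difference was -1.69. It was largest for UTP20, at -3.86 (SE 0.079, limma adjusted p = 6.8e-16), and smallest for RRP7, at -0.35, which was short of the 1.7-fold limit (limma adjusted p = 0.00011). Genes that fell more in heat tended to rise more on cooling. Over the 51 genes, Pearson's r between the change at 5 min of heat and that at 5 min of cooling was -0.535 (Spearman's rho -0.503), and between 15 min of heat and 5 min of cooling -0.440 (rho -0.405). These are descriptions across genes that share the same arrays, and genes are not independent replicates. No such correlations over all probes are given, so whether they are particular to the 51 genes was not tested.

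The times of the extremes in the 2 courses went together in part. Of the 16 genes that were lowest at 15 min of heat 8 were highest at 15 min of cooling, namely NOP1, SNU13, ECM16, BMS1, UTP20, RRP5, NOP14 and DIM1. The other 8 were highest at 5 min. For several of those named the change from 5 to 15 min of cooling was small, as 0.04 for ECM16, 0.06 for BMS1 and 0.07 for NOP14. By the adjusted p alone 2 of the 51 genes, SNU13 and RRP5, were higher at 15 than at 5 min of cooling. With the control-spot curve 15 of the 51 genes were highest at 15 min of cooling. Of the 35 that were lowest at 5 min of heat 1, DIP2, was highest at 15 min of cooling, 33 at 5 min and 1 at 45 min. Pearson's r between the change of 15 minus 5 min in heat and that of 15 minus 5 min on cooling was -0.663 (rho -0.621) over the 51 genes, and -0.337 over all 5326 probes. The heat arrays and the cooling arrays of this relation are different arrays. Its genes share those arrays, and it is given as a description.

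**Figure D4:**
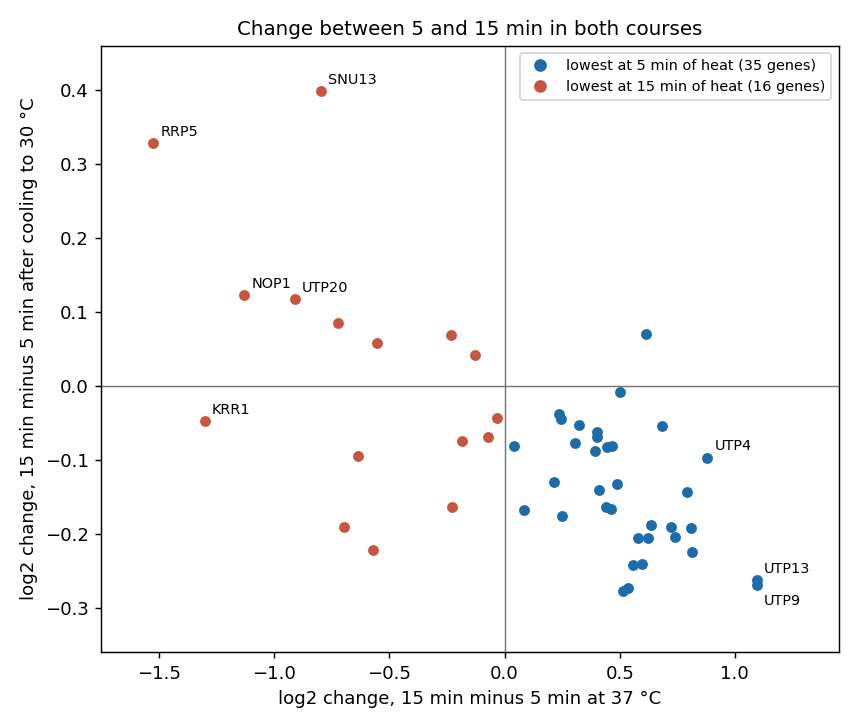
For each of the 51 genes the log2 change of 15 min minus 5 min at 37 °C (x axis) is set against the log2 change of 15 min minus 5 min after cooling to 30 °C (y axis), in red for the 16 genes lowest at 15 min of heat and in blue for the 35 lowest at 5 min. RRP5 and SNU13 lie at the upper left, at -1.52 and 0.33 and at -0.80 and 0.40, and UTP13 and UTP9 at the lower right.

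The same courses were read for the other parts of ribosome production. For scale, 6.01% of all probes fell at 5 min of heat, 9.35% fell at 15 min, and 2.93% rose after 5 min of cooling. Of 26 other 40S factors 16 fell at 5 min and 16 at 15 min, with medians of -0.94 and -0.87. Of 62 assembly factors of the large, 60S subunit 50 fell at 5 min and 45 at 15 min, with medians of -1.27 and -1.09, and 45 rose after 5 min of cooling, with a median of 0.88. Of 7 subunits specific to RNA polymerase I, which transcribes the precursor, or shared in its complex, 6 fell at each of the 2 heat times and 2 rose after 5 min of cooling. The genes of the 40S ribosomal proteins themselves behaved otherwise. Of 54 measured, 2 fell at 5 min, against 6.01% of all probes. At 15 min 20 fell, against 9.35%, and at 30 min 20, against 7.02% of all probes. Their medians at these times were -0.21, -0.50 and -0.48, and after 5 min of cooling their median was 0.15. Several of these protein genes are near-identical pairs whose probes can share signal. At 5 min of heat the processome and 40S assembly genes, with a median of -1.23, were close to the assembly factors of the other subunit. At 15 min their median was -0.91, against -1.09 for those factors. After 5 min of cooling it was 0.78, against 0.88, with 27 of 51 genes higher, against 45 of 62. No test of a difference between lists was made.

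**Figure D5:**
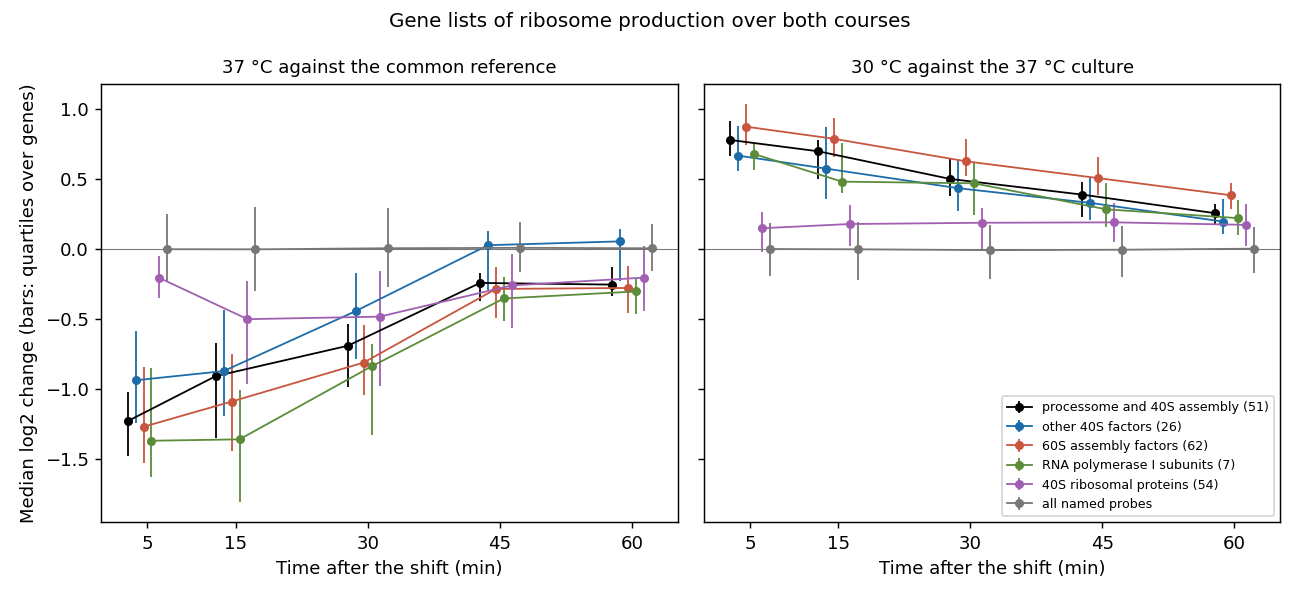
Median log2 change (points) and quartiles over genes (bars) of 6 sets of genes are plotted against time in min, for heat over the common reference (left) and cooling over the 37 °C culture (right). Points are shifted sideways for legibility. After 5 min of heat the 51 genes (black) are close to the assembly factors of the 60S subunit (red), at -1.23 and -1.27, whereas the 40S ribosomal proteins (purple) are at -0.21.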

How the data were processed

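Per the labels and the study's methods, the authors scanned dual-colour arrays of BY4742 and deposited spot intensity and background values per channel, together with log2 ratios normalised by print-tip loess (span 0.4, no background subtraction) and then corrected for gene-specific dye bias. The deposited log2 ratios ran opposite to the labels on 3 of 22 arrays and were turned. A deposited table of the authors' comparisons holds fold changes and p-values and was not used, nor were the labels' protocol file and the authors' limma 2.12.0 output. Here the intensities were normalised by print-tip loess over 48 blocks (span 0.4, spots above 32768 not used to draw it), both spots of each probe were averaged, and limma 3.58.1 in R 4.3.3 was fitted with 11 conditions and a dye term on all 22 arrays, giving 10 residual degrees of freedom. Because letter a or b is also the dye orientation, the dye term is the replicate block. Benjamini-Hochberg adjustment ran over the 5326 named probes of 6388 gene probes. Probe names came from the platform annotation and yeast RefSeq names. The script was tested on simulated data. All 51 genes could be named, and arrays are given for the 3 lowest and highest at 5, 15 and 60 min of heat and 5 and 15 min of cooling and for the ends of each role at 15 min of heat, with further genes chosen after their values were seen. The genes and lists were chosen with earlier results of these data known. Alternatives were background correction (normexp with an offset of 50), other normalization curves, the deposited ratios, a filter on dim probes, no dye term, 1 course alone, other thresholds, another baseline and leaving out each array. The number of arrays limits the precision. Promoter sequences were not analysed here.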

Additional observations from a re-analysis of the deposited data

Results flagged for a closer look

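Some comparisons between times or courses were themselves tested, and these are the values that passed. At 15 min of heat 5 genes were lower than at 5 min (RRP5, KRR1, NOP1, UTP20 and SNU13) and 6 were higher (UTP13, UTP9, UTP4, SOF1, UTP6 and RCL1), with a median change of 0.40 over the 51. Which genes passed depended in part on the processing, as given in the results. At 30 min 2 genes were higher than at 15 min (NOP1 and UTP20), the size for NOP1 depending on the curve. At 60 min 24 were higher than at 15 min, with UTP20 furthest at 2.07. On cooling, 3 genes were lower at 60 min than at 15 min (UTP20, RRP5 and NSR1). After 60 min of heat 1 gene, UTP10, was lower than in the culture grown at 37 °C. At 15 min the heat and cooling changes differed for 50 of the 51 genes, RRP7 being the one whose difference was under 1.7-fold. This difference combines the fall in heat with the rise on cooling, each over its own baseline, and is no separate evidence.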

How the results depend on the processing

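All 19 counts stayed within 1.5 times of their values with probes above background on all arrays only, and without the replicate block, that is, without the dye term, where 46, 35 and 22 genes were lower at 5, 15 and 30 min of heat. So did all 17 counts that 1 course alone could give. In heat, the counts lower at 45 min were 2 with the curve on external control spots, 4 without a within-array curve and 2 when set against the 37 °C culture, and at 60 min 4 without a curve, 1 with the deposited log2 ratios and 1 against the 37 °C culture. At 30 min 13 were lower by 2-fold. For 15 against 5 min, 8 were lower with the control-spot curve and 3 by 2-fold. For 30 against 15 min, 1 was higher with normexp, the control-spot curve, no curve and the deposited ratios, and 0 with global loess and by 2-fold. For 60 against 15 min, 42 were higher with the control-spot curve and 15 by 2-fold. On cooling, 6, 3 and 0 were higher by 2-fold at 5, 15 and 30 min and 10 and 2 at 15 and 30 min without a curve. At 45 min 3 were higher with the control-spot curve and 1 without a curve, and at 60 min 2 with the control-spot curve. Lower at 60 than at 15 min was 1 by 2-fold. The 37 °C culture had 1 lower with the control-spot curve. Heat 60 min against that culture gave 0 with the control-spot curve and by 2-fold, and 2 without a curve. By adjusted p alone, lower in heat were 51, 42 and 41 at 30, 45 and 60 min (40.3%, 35.7% and 33.9% of all probes), higher on cooling 51, 51, 50, 46 and 40 at the 5 times (28.7% to 32.4%), lower in the 37 °C culture 8 (32.3%), lower at 60 min of heat than in it 41 (21.6%), higher at 60 min of cooling than in the reference 47 (31.7%), and between times 13 lower (15 against 5 min of heat, 27.6%), 36 and 49 higher (30 and 60 against 15 min, 19.9% and 34.7%), 2 higher (15 against 5 min of cooling, 10.2%) and 48 lower (60 against 15 min of cooling, 25.8%). The cause of these changes was not tested, beyond the thresholds themselves.

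Leaving out 1 array at a time, the lone array being assumed to vary like the others, 57 of 64 counts stayed within 1.5 times. Neither these 64 counts nor the 19 above include the genes higher at 15 than at 5 min of heat. That count leaned on array b of the 5 min sample, as given in the results. The ranges were 44 to 45, 33 to 36, 22 to 23, 0 to 2 and 0 to 1 lower over the 5 heat times, and 22 to 29, 12 to 22, 2 to 8, 0 to 2 and 0 to 0 higher over the 5 cooling times. Lower were 4 to 6 at 15 against 5 min of heat, 3 to 4 at 60 against 15 min of cooling, 1 to 1 at 60 min of heat against the 37 °C culture and 0 to 0 in that culture. Higher were 1 to 2 at 30 against 15 min of heat, 24 to 25 at 60 against 15 min, 0 to 0 at 15 against 5 min of cooling and 0 to 0 at 60 min of cooling against the reference, and 49 to 50 genes differed between courses. The 7 other counts were those without array a at 45 min of heat (2), array b at 60 min (1) and array b at 30 min (1 higher than at 15 min), and on cooling, at 30 min, without array a (8) or b (2) of that time or array b of the 37 °C culture (2), and at 45 min without array a (2). The control-spot curve is extrapolated for the 4 genes brighter than the brightest control. It moved the median of all probes by 0.19 at 45 min and 0.20 at 60 min of heat. Only 2 arrays per condition limit the standard errors, whose median at 15 min of heat was 0.042.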

Other observations

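On these arrays 1 of the 51 genes, RRP7, had its highest change on cooling at 45 min, and its values over the common reference after 5, 15, 30, 45 and 60 min of cooling were 0.18, 0.18, 0.16, 0.21 and 0.22 on array a and 0.26, 0.17, 0.28, 0.35 and 0.20 on array b.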
